A study of Mus musculus with 6 samples.

Results

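The cytosolic ribosomal protein genes encode the protein parts of the ribosome that translates nuclear messages. They were taken as the protein-coding mouse genes with symbols of the Rpl, Rps, Rplp and Rpsa families, with pseudogenes and the S6 kinases left out. The rule found 83 of the 55487 genes in the count table, 51 of the large (60S) and 32 of the small (40S) subunit. Another 6 genes matched the name pattern but were not annotated as protein-coding and were left out. The rule used names only and no measured value.

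RNA was sequenced from 6 whole tongue grafts of B16F10, a pigmented mouse melanoma line, grown in C57BL/6J mice whose genotype was labelled wild type and whose age was not given. The 3 control mice had received the vector AAV2/retro-Trpv1-mCherry in the cervical lymph nodes, which marks nerves of the Trpv1 (nociceptive) type with a red fluorescent protein. The 3 inhibition mice had received AAV2/retro-Trpv1-hM4D(Gi)-mCherry, which adds hM4D(Gi), an engineered receptor through which a synthetic drug quiets the neuron. Tumour cells were placed under the tongue mucosa 6 weeks later, and deschloroclozapine, the drug for that receptor, followed over 12 days at 2 doses per day; the control samples were labelled vehicle-treated while the series text gave the drug to the mice without naming a group, so what the controls received is unclear. The nerves, not the graft, carried the vectors, and nothing in the graft RNA checks their silencing. Nothing in the labels ties each sample to its own animal, so the p-values below measure only the spread between these samples. In bulk RNA, fewer cells of a type and less RNA per cell cannot be told apart.

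A ribosome joins a large subunit, which forms peptide bonds, to a small subunit, which decodes the message. Each subunit holds a fixed set of proteins, most in a single copy, and their synthesis is matched to that of ribosomal RNA. Ribosomal protein messages start with a C followed by a tract of pyrimidines, the 5′ terminal oligopyrimidine (TOP) motif, through which the kinase complex mTORC1 and the RNA-binding protein LARP1 control their translation and stability. Growing tumour cells, melanoma included, transcribe these genes heavily, and MYC is a known activator of ribosome production.

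The start sites of 63 of the 83 genes were matched to the RefSeq promoter table (GRCm38.p6), which allowed the pyrimidine tract to be shown beside the expression values. The 8 stretches below run from 60 bases before the start site through the first 20 transcribed bases, 5′ to 3′ on the gene's strand. Rpl22l1, Rpl39, Rps27, Rpl10 and Rpl12 were among the 7 members with the lowest fold changes, and Rps26, Rpl35 and Rpl3l among the 6 with the highest. Capitals mark runs of 8 or more C or T in the printed stretch.
Rpl39 (chrX:37085203-37085282, - strand): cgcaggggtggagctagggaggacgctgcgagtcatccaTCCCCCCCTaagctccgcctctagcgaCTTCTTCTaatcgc
Rps27 (chr3:90213629-90213708, - strand): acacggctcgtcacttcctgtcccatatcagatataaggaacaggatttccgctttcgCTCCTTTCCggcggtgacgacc
Rpl10 (chrX:74270756-74270835, + strand): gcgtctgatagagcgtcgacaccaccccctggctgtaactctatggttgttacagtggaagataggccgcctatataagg
Rpl12 (chr2:32961652-32961731, + strand): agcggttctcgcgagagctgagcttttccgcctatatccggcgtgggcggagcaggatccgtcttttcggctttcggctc
Rpl22l1 (chr3:28805448-28805527, + strand): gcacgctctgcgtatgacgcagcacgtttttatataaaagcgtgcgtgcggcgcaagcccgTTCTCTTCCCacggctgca
Rps26 (chr10:128626487-128626566, - strand): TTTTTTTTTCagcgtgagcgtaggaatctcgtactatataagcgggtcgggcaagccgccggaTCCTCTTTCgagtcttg
Rpl35 (chr2:39005112-39005191, - strand): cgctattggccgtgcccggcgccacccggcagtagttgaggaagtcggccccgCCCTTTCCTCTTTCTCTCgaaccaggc
Rpl3l (chr17:24727766-24727845, + strand): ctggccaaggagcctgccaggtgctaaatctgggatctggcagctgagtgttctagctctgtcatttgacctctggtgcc
A marked run spans the start site of Rps27 and Rpl35 and lies within the first 20 transcribed bases of Rpl39, Rpl22l1 and Rps26, and none is in the printed stretch of Rpl10, Rpl12 or Rpl3l. Runs shorter than 8 were not marked, such as the tcttttc just after the start site of Rpl12. A stretch without a mark therefore does not show that the gene lacks the tract.

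Across the matched members, 52 of 63 (82.5%) held a run of 8 or more C or T on the gene's strand within 50 bases on each side of a start site, against 39.3% of all 27025 genes in the promoter table. The letters CCGGAAG, searched on both strands from 250 bases before to 50 after the start, were found in 26 of the 63 (41.3%) against 9.93% of all genes. AAGATGGC was found in 6 (9.52%) against 3.19%, CACGTG in 6 (9.52%) against 8.09%, and TATAAA in 7 (11.1%) against 15.7%. The tested members with a pyrimidine run had a median log2 fold change of -0.22, inhibition over control, and the 9 tested members without one -0.20. Such runs were therefore common among these genes, and the medians with and without a run were close. The search did not require a run to begin at the first transcribed base, and only 9 tested members lacked one. Whether the TOP tract goes with the fold change was thus not tested.

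The 6 libraries held 14477277 to 20972494 counts. Levels below are CPM, each count divided by the TMM-scaled size of its library, with scaling factors of 0.987 to 1.017. Defining melanocyte markers were abundant, with all 12 tested and a summed level of 23725 to 31621 CPM in the controls and 30695 to 35814 CPM in the inhibition grafts. Host tissue was also counted. The 28 skeletal muscle markers (26 tested, none at 0 in all libraries) summed to 1141, 2540 and 1588 CPM in the controls and 5139, 4642 and 2992 CPM in the inhibition grafts. The 24 squamous epithelium markers (22 tested, none at 0) summed to 1539 to 3168 against 1899 to 5518 CPM, and the 16 fibroblast markers, all tested, to 995 to 1563 against 1907 to 2487 CPM. The 10 neutrophil markers (9 tested) summed to 36.8 to 100.8 against 7.50 to 29.5 CPM. Of the 12 lymphocyte markers 1 was tested, and their sum was 1.81 to 7.22 CPM. Ribosomal protein genes are expressed in all of these cells.

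Ribosomal protein messages took a smaller share of the counts in the inhibition grafts. In the controls the 83 genes held 3.93%, 3.97% and 3.97% of all counts (mean 3.96 ± 0.0207%, SD, n = 3), and in the inhibition grafts 3.197%, 3.596% and 3.467% (3.42 ± 0.203%, SD, n = 3). The 3 controls were almost level, all 3 inhibition grafts lay below them, and inhibition 1 was the lowest. The large subunit genes held 2.35%, 2.38% and 2.38% in the controls against 1.92%, 2.16% and 2.08%. The small subunit genes held 1.58%, 1.59% and 1.59% against 1.28%, 1.44% and 1.39%. Both subunits were thus lower in the same grafts and in the same order.

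The ratio of the subunits' counts differed by less than the spread between grafts, while equal weight per gene put the small subunit slightly lower. The ratio of large to small subunit counts was 1.489, 1.503 and 1.502 in the controls (mean 1.498 ± 0.00756, SD, n = 3) and 1.495, 1.504 and 1.497 in the inhibition grafts (1.499 ± 0.00486, SD, n = 3). When each gene was given the same weight, as the mean log2 CPM of the tested members less the mean of the controls, inhibition grafts 1, 2 and 3 stood at -0.26, -0.05 and -0.17 for the large subunit and at -0.33, -0.15 and -0.19 for the small. The small subunit thus stood below the large in each inhibition graft. The large subunit mean includes Rpl3l, at 0.603 to 7.23 CPM and with a log2 fold change of 1.87. This low-count gene has the same weight as the others, and a mean without it was not computed. Large less small was 0.07, 0.10 and 0.02 in these grafts and -0.04, 0.03 and 0.01 in the controls, and the groups overlapped. The pooled SD between libraries of large less small was 0.038. As another measure, the median log2 fold change was -0.21 over 48 tested large subunit genes and -0.26 over 32 small subunit genes, a difference of 0.05.

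**Figure D1:**
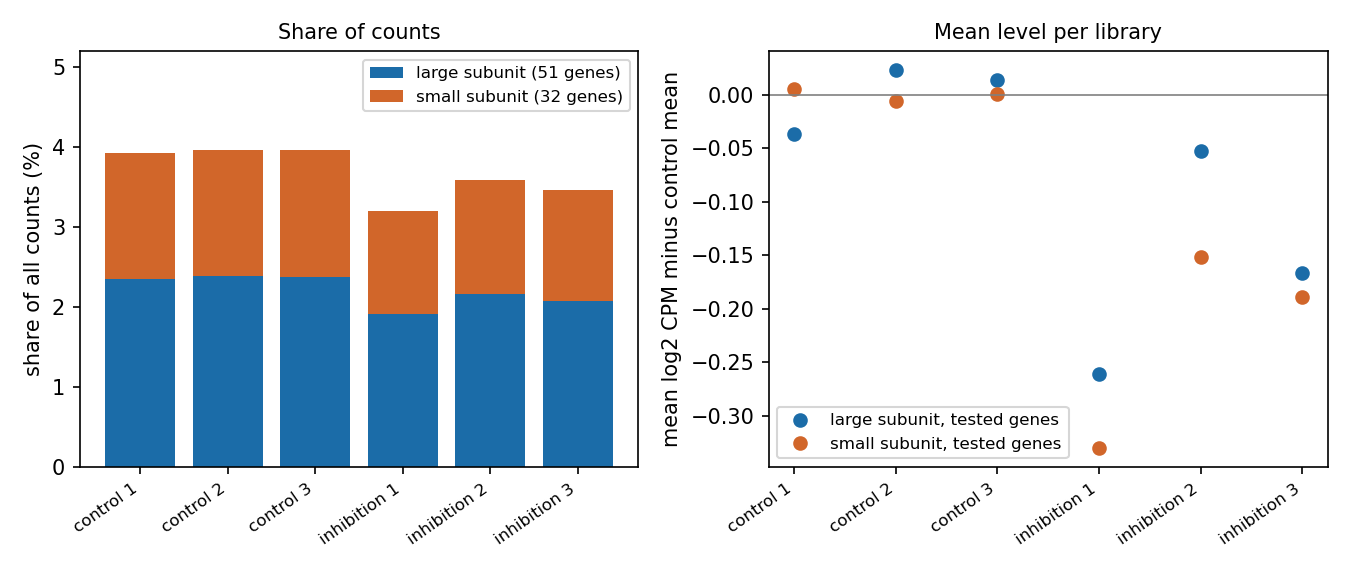
Share of all counts held by the 51 large and 32 small subunit genes, stacked, in each library (left, percent), and mean log2 CPM of the tested genes of each subunit less the control mean (right, 1 point per subunit and library). The bars of the inhibition grafts, at 3.197% to 3.596%, are below the 3.93% to 3.97% of the controls, and the lowest points are those of inhibition 1, at -0.26 and -0.33.

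Of the 83 members, 80 passed the filter on low counts and were tested by edgeR's quasi-likelihood test among 15666 genes. No member passed at a Benjamini-Hochberg adjusted p under 0.05, where 6 genes of the whole table did (0.0383%, or 0.00638% lower and 0.0319% higher); the smallest adjusted p among the members was 0.143. At an unadjusted edgeR p under 0.05, 51 members were lower in the inhibition grafts, where 7.00% of all genes tested were, and 1 was higher, where 8.36% of all genes were. These were 30 of the 48 large and 21 of the 32 small subunit genes. Limma-voom called 0 members, with unadjusted p-values under 0.05 for 52 lower members (6.66% of all genes) and 1 higher member (8.21% of all genes). DESeq2 called 23 members at an adjusted p under 0.05, 22 lower (background 1.30%) and 1 higher (background 2.37%). The 22 lower calls of DESeq2 were 9 large and 13 small subunit genes, and whether members pass a test therefore depends on the tool.

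In 55 members, 32 large and 23 small subunit genes, all 3 inhibition libraries lay below all 3 control libraries, where 11.0% of all genes tested did. In 0 members did they all lie above, where 10.2% of all genes did. The log2 fold change was below 0 in 75 of the 80 members (49.0% of all genes), 44 of 48 large and 31 of 32 small subunit genes. Its median was -0.22, which is 14.1% lower, with quartiles of -0.28 and -0.13, while the median of all genes tested was 0.0049. Abundant genes as a whole leaned lower, with 59.0% of the 4777 genes of at least 50 CPM below 0 and a median of -0.03. The other 41.0% were above 0. At an unadjusted p under 0.05, 12.3% of the abundant genes were lower and 4.65% higher. The 75 members of at least 50 CPM had a median of -0.22, a median standard error of 0.077 and 74 values below 0. Most members thus stood lower by small and similar amounts.

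**Figure D2:**
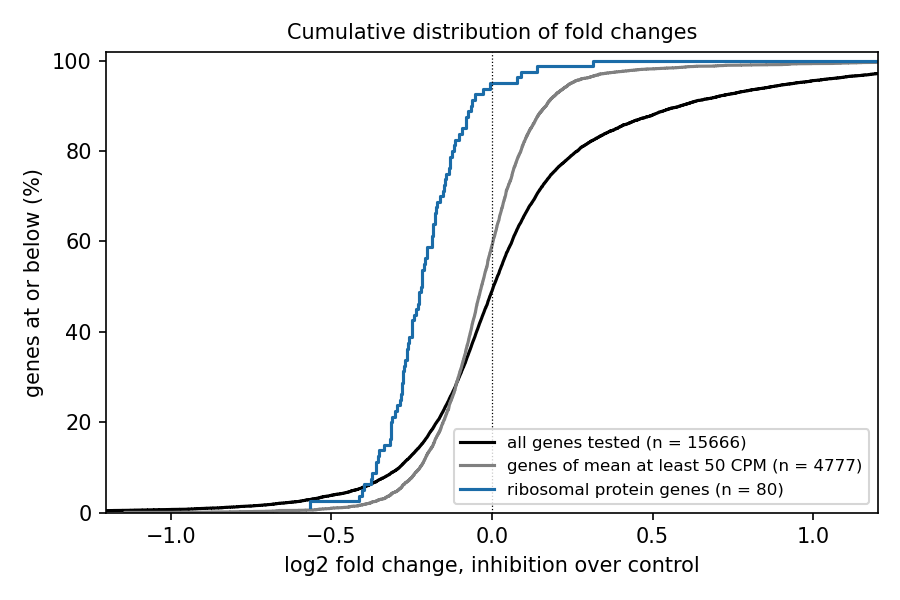
Cumulative percentage of genes (vertical axis) at or below each log2 fold change, inhibition over control (horizontal axis, -1.2 to 1.2), for all genes tested, genes of mean at least 50 CPM and ribosomal protein genes. The curve of the ribosomal protein genes lies to the left, with a median of -0.22 against 0.0049 for all genes and -0.03 for abundant genes; Rpl3l, at 1.87, is beyond the axis.

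The median moved with single grafts, and the count of members at an unadjusted p under 0.05 also fell when the muscle level was a covariate. Without inhibition 1, the median of the members was -0.19 and 33 lower members had an unadjusted edgeR p under 0.05 (4.04% of all genes); without inhibition 2, the median was -0.27 and 56 were lower (5.92% of all genes). With the muscle marker level as a covariate, the median was -0.19 and 74 members were below 0, and 14 were lower at an unadjusted p under 0.05, where 1.98% of all genes were in the same fit. Control 2, whose muscle level was 0.74 above the control mean on the log2 scale, had a ribosomal protein level of 0.01 relative to the same mean, and control 1, with a muscle level of -0.53, had -0.02. Inhibition grafts 1, 2 and 3 had muscle levels of 1.62, 1.52 and 0.68 and ribosomal protein levels of -0.29, -0.09 and -0.18. The part of other host tissue in the result was not tested.

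The P stalk of the large subunit, which recruits elongation factors, is made of Rplp0, Rplp1 and Rplp2. Rplp0, its base, measured 2094, 2258 and 2260 CPM in the controls and 1921, 1963 and 1980 CPM in the inhibition grafts (log2 fold change -0.17, standard error 0.07, edgeR adjusted p = 0.287). Rplp1 measured 1174, 1191 and 1199 against 923, 1032.5 and 972 CPM (-0.28, 0.07, edgeR adjusted p = 0.174, DESeq2 adjusted p = 0.00915). In both genes all inhibition grafts lay below all controls. Rplp2 measured 283, 262 and 336 against 234, 273 and 259 CPM, and its groups overlapped. Rpl5 and Rpl11, which carry the 5S RNA into the large subunit and bind MDM2 when assembly fails, had log2 fold changes of -0.15 and -0.22. Rpl5 measured 752, 746 and 748 against 657, 686 and 683 CPM, with no overlap, as was the case for Rpl11.

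Among 8 proteins that line or ring the exit of the peptide tunnel, 6 had log2 fold changes below 0, with a median of -0.14. Rpl39, a small protein of the tunnel wall, lay lowest at 128, 109 and 116 CPM in the controls and 78.2, 105 and 82.3 CPM in the inhibition grafts (log2 fold change -0.41, standard error 0.12, edgeR adjusted p = 0.199). Its highest inhibition graft stood just under its lowest control. Rpl4 and Rpl31 stood at -0.22 each, Rpl17 at -0.18, Rpl26 at -0.10 and Rpl19 at -0.08. Rpl23a (0.09) and Rpl35 (0.08) were above 0 and overlapped between the groups. Part of the counts of these genes lay on near-identical copies, described below. Summed with their copies, Rpl23a stood at -0.17, Rpl35 at -0.04 and Rpl17 at -0.34. Rpl10, which helps close the peptidyl transferase centre late in assembly, measured 633, 684 and 657 against 467, 565 and 489 CPM without overlap (-0.38, standard error 0.09, edgeR adjusted p = 0.165, DESeq2 adjusted p = 0.00464).

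In the small subunit, the proteins at the entry of the messenger channel and the decoding site had a median log2 fold change of -0.28. Rps2 measured 776, 765 and 908 CPM in the controls and 591, 698 and 686 CPM in the inhibition grafts (-0.31), and Rps3 890, 856 and 917 against 663, 773 and 766 CPM (-0.27). Rps23, at the decoding centre, stood at -0.28 and Rps15 at -0.09. The proteins at the messenger exit and the platform ranged from -0.41 to -0.0065. Rps14 (ENSMUSG00000024608), a platform protein, had the lowest edgeR p of all members, with 525, 520 and 511 CPM in the controls and 364, 434 and 370 CPM in the inhibition grafts (log2 fold change -0.41, standard error 0.08, edgeR adjusted p = 0.143, DESeq2 adjusted p = 0.000733). Its control values were nearly level and all 3 inhibition values lay below them.

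Rps26, its neighbour at the messenger exit, measured 643, 728 and 649 against 681, 644 and 684 CPM, a log2 fold change of -0.0065 with a standard error of 0.08. Rpsa, the laminin receptor precursor that sits at the same place, measured 1671, 1875 and 1872 against 1723, 1668 and 1800 CPM (-0.06), and Rps28 stood at -0.15. Rps26 and Rpsa overlapped between the groups, and each log2 fold change was smaller in size than its standard error, 0.08 for both. The direction of a small shift is therefore not settled. Rps6, the substrate of the S6 kinases downstream of mTORC1, measured 542, 571 and 572 against 530, 517 and 546 CPM (-0.08), also with overlap.

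Rps27, which carries a zinc finger, measured 175, 163 and 163 CPM in the controls and 115, 146 and 119 CPM in the inhibition grafts without overlap (log2 fold change -0.40, standard error 0.10, edgeR adjusted p = 0.166, DESeq2 adjusted p = 0.0164). Rps27a, made as a fusion with ubiquitin, was far more variable, at 208, 265 and 165 against 131, 150 and 210 CPM. Inhibition 3 lay above 2 of the controls, and the log2 fold change of -0.37 had a standard error of 0.24; it was -0.20 without control 2 and -0.61 without inhibition 3. Of 9 genes mutated in Diamond-Blackfan anaemia, an inherited failure of red cell production, 8 were below 0, with a median of -0.15. The exception, Rps10, had 98.6% of its joint counts on near-identical copies and stood at -0.04 when summed with them. Among the 9 genes Rps19, the most often mutated, stood at -0.36, with 278, 250 and 277 against 189, 219 and 219 CPM and a DESeq2 adjusted p of 0.0102.

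**Figure D3:**
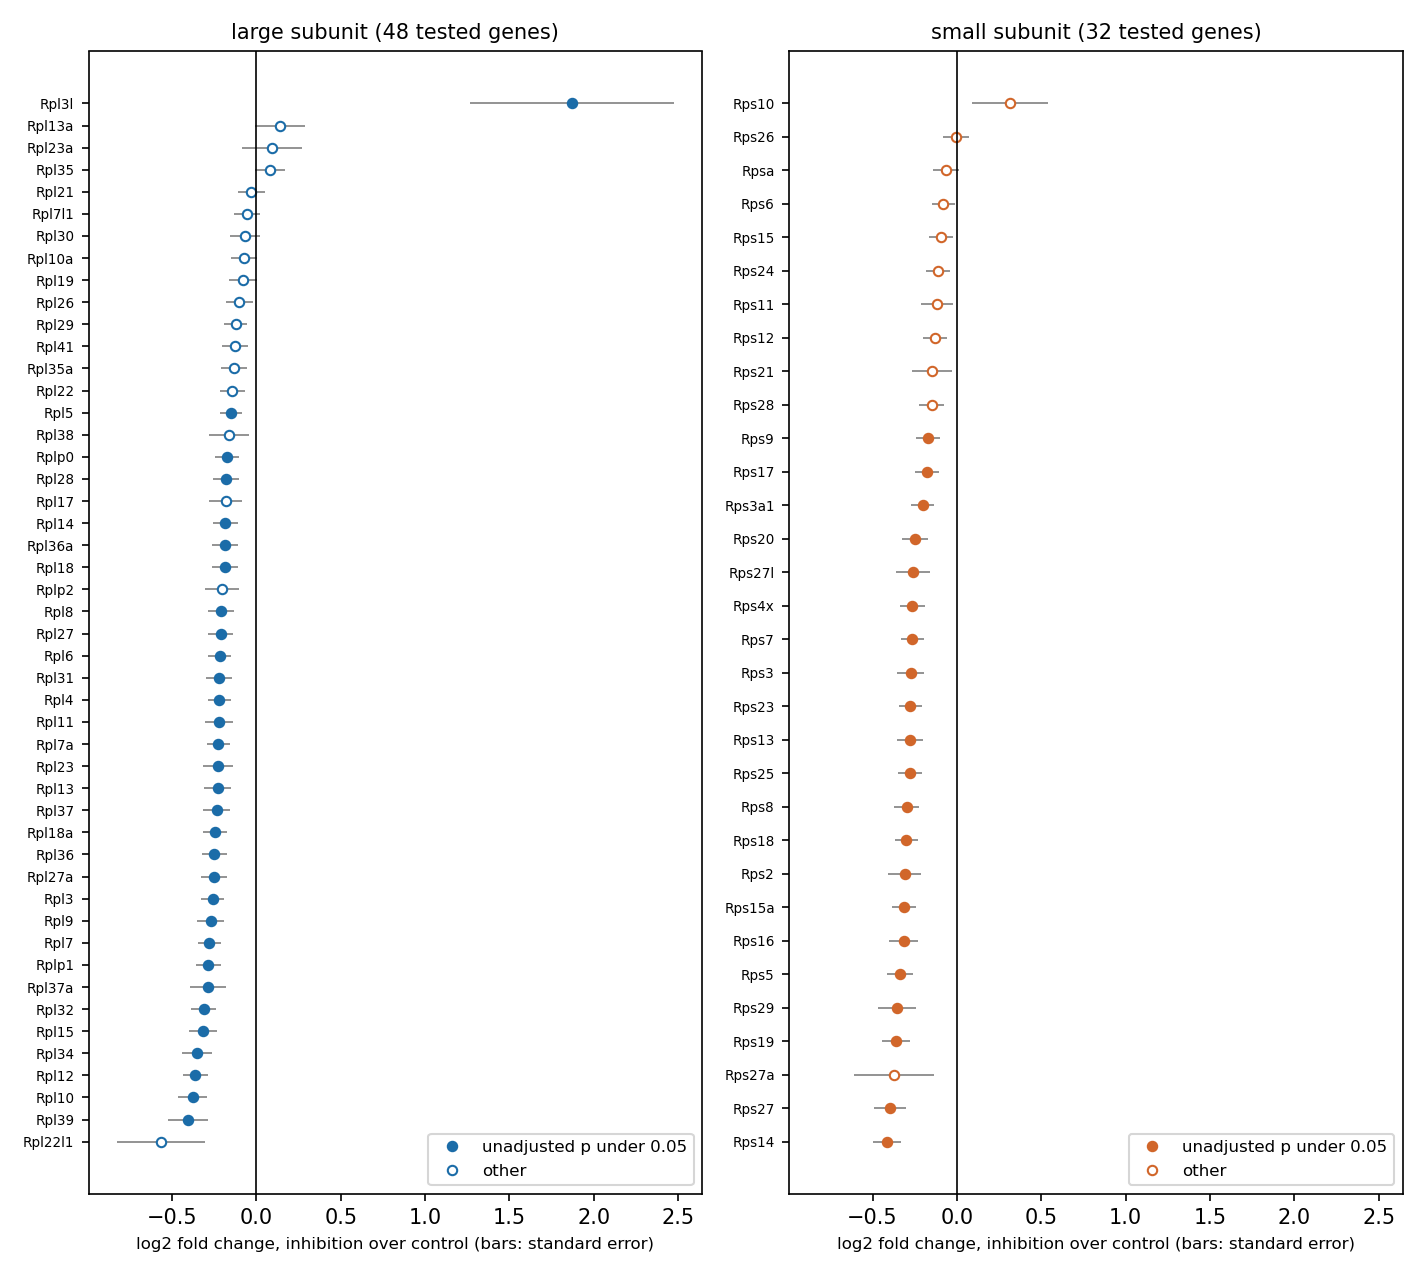
Log2 fold change, inhibition over control (horizontal axis), of each of the 80 tested ribosomal protein genes with its standard error, by subunit, filled where the unadjusted edgeR p was under 0.05. A total of 75 points lie below 0, from -0.56 for Rpl22l1, and Rpl3l stands apart at 1.87 with a standard error of 0.60.

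Levels between genes were compared as CPM per kilobase of the principal annotated transcript. The highest means over the 6 libraries were 2168 for Rplp1, 1722 for Rpl41, 1605 for Rpl32, 1531 for Rplp0 and 1373 for Rpl8. Rpl41, the shortest ribosomal protein, measured 1803, 1826 and 1767 CPM per kilobase in the controls and 1501, 1753 and 1680 in the inhibition grafts, and Rpl32 1818, 1785 and 1732 against 1319, 1471 and 1506. In all 5 of these genes the inhibition values lay below the control values, as in 55 of the 80 tested members and 11.0% of all genes tested. Over the 75 members of at least 50 CPM, the log2 fold change had a Spearman rho of 0.03 with transcript length and -0.07 with CPM per kilobase, across genes that share the same 6 libraries. With these members divided by transcript length into 3 sets of 25, the medians were -0.19, -0.24 and -0.23 from shortest to longest. Among these abundant members, values below 0 were thus found at all lengths. Of the 5 tested members under 50 CPM, Rpl3l, Rps10, Rpl13a and Rpl23a were above 0 and Rpl22l1 below.

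Several ribosomal proteins have a second gene of related sequence with a tissue-biased role. Rpl3l (ENSMUSG00000002500, chr17:24727820-24736143 on GRCm38), which replaces Rpl3 in the ribosomes of striated muscle, had the highest log2 fold change of all members, with 0.603, 2.21 and 1.06 CPM in the controls and 5.05, 7.23 and 1.86 CPM in the inhibition grafts (1.87, standard error 0.60, edgeR adjusted p = 0.233, DESeq2 adjusted p = 0.028). These were 10, 34 and 22 counts against 72, 141 and 39, and inhibition 3 lay below control 2. Rpl3 itself measured 916, 972 and 950 against 756, 815 and 801 CPM (-0.26), without overlap. Rpl3l was 0.0659%, 0.227% and 0.112% of the summed Rpl3 and Rpl3l counts in the controls and 0.663%, 0.878% and 0.231% in the inhibition grafts. Its order over the 6 libraries was that of the muscle marker level except that inhibition 2 lay above inhibition 1, and with the muscle level as a covariate its log2 fold change was -0.10.

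Rpl22l1 (ENSMUSG00000039221, chr3:28805436-28807424), the paralog of Rpl22, had the lowest log2 fold change of all members. It measured 14.6, 13.2 and 14.2 CPM in the controls and 5.82, 13.5 and 8.96 CPM in the inhibition grafts (-0.56, standard error 0.26, edgeR adjusted p = 0.347). Inhibition 2 lay among the controls, and the value was -0.92 without that graft and -0.33 without inhibition 1. Rpl22 measured 175, 169 and 176 against 149, 171 and 150 CPM (-0.14). Rpl22l1 was 7.69%, 7.26% and 7.50% of the pair's counts in the controls and 3.75%, 7.32% and 5.62% in the inhibition grafts.

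Rpl7l1, a paralog of Rpl7 known from ribosome assembly, measured 144, 159 and 159 against 148, 140 and 157 CPM (-0.05, with overlap), while Rpl7 measured 905, 921 and 911 against 760, 781 and 714 CPM (-0.28, without overlap). The share of Rpl7l1 in the pair's counts was 13.7%, 14.8% and 14.9% in the controls and 16.3%, 15.2% and 18.1% in the inhibition grafts, so the groups did not overlap. Rps27l, a p53-induced paralog of Rps27, had 41.2%, 36.5% and 42.0% of its pair's counts in the controls and 44.0%, 39.0% and 44.6% in the inhibition grafts, with overlap. Rps4x measured 969, 960 and 938 against 752, 854 and 783 CPM (-0.26), without overlap, and Rps4l, a related gene that is not annotated as protein-coding, had 36, 44 and 45 against 28, 58 and 60 counts. Rpl10l, a testis form of Rpl10, was counted 0 times, which allows up to 0.143 to 0.207 CPM per library (3 counts, counting error only). Rpl39l, a testis form of Rpl39, had 3 counts in inhibition 2 and 0 in the other libraries.

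**Figure D4:**
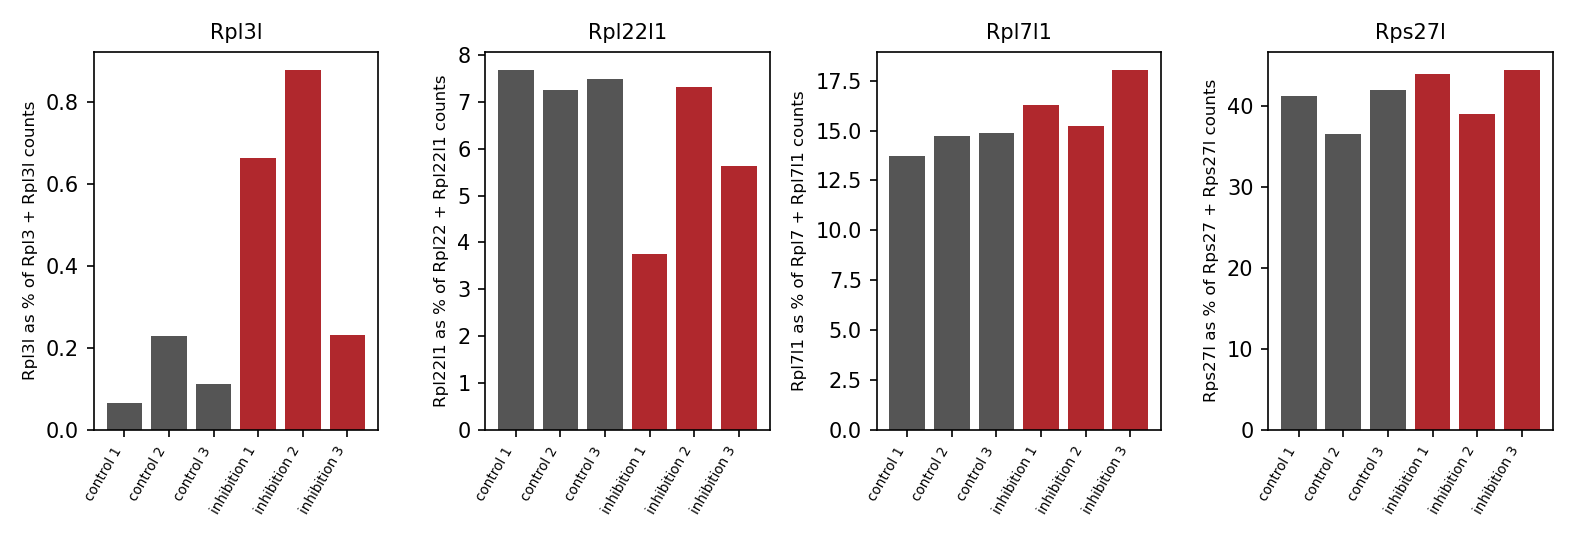
Share of the counts of a paralog pair that fell on the second gene (vertical axes, percent, each panel on its own scale from 0), 1 bar per library, controls in grey and inhibition grafts in red. Rpl3l is highest in inhibition 1 and 2, at 0.663% and 0.878%, Rpl22l1 is lowest in inhibition 1, at 3.75%, and the shares of Rpl7l1 in the inhibition grafts are all above those of the controls.

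Ribosomal protein genes have spawned many processed copies in the genome, and reads from a parent can be counted on a copy. A search of the members' coding sequences against the GENCODE M21 transcripts found 563 near-identical copies of 77 members, with at least 95% identity over at least 90% of the coding sequence. Of these 546 were annotated as pseudogenes and 16 as protein-coding. The copies held 431007 counts beside 3971368 on the members, or 9.79% of the total, and 9.499% to 10.02% in each library. The share of counts on copies was thus nearly the same in every graft. Of the 200 copies that were tested, 170 had log2 fold changes below 0 (49.0% of all genes tested), with a median of -0.28. By edgeR 0 passed adjustment. Unadjusted edgeR p-values were under 0.05 for 49 lower copies (7.00% of all genes tested) and 1 higher copy (8.36% of all genes). DESeq2 called 14 lower (background 1.30%) and 0 higher (background 2.37%), and limma-voom called 0.

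The copies changed what was read for a few members. Rps10 (ENSMUSG00000052146, chr17:27630418-27636669 on GRCm38) had 80, 71 and 86 counts in the controls and 62, 112 and 142 in the inhibition grafts, a log2 fold change of 0.32. Its copy Rps10-ps2 held 5813, 6065 and 7955 against 5510, 6462 and 8060 counts, so that 98.6% of the counts of the gene and its copies lay on copies, and the summed log2 fold change was -0.04. For Rpl23a 86.7% lay on copies and the value went from 0.09 to -0.17 when summed, and for Rpl35 it went from 0.08 to -0.04. Rpl13a remained above 0, at 0.14 alone and 0.06 with its copies. With parents and copies summed, a comparison added after the data were seen, 79 members were below 0 and 2, Rpl3l and Rpl13a, above.

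Rps12, a small subunit protein, measured 240, 246 and 242 CPM in the controls and 206, 231 and 229 CPM in the inhibition grafts (log2 fold change -0.13), but its copies held 46.6%, 45.9% and 48.6% of the joint counts in the controls and 42.6%, 36.4% and 35.2% in the inhibition grafts. Summed with them its value was -0.36. Rpl17 went likewise from -0.18 to -0.34, with 59.8% of the joint counts on copies. Rpl24 had 44 counts in all libraries together and was not tested alone. Its copies held 218 counts, 83.2% of a joint total that was itself low, so the copies did not bring it near the other members. Summed with them, its log2 fold change was -0.37 with a standard error of 0.36. Over 50% of the joint counts lay on copies in 6 members, Rps10, Rpl23a, Rpl24, Rpl21, Rpl17 and Rpl38, whose own values are uncertain. Under 5% lay on copies in 40 members. Of the 39 tested, 38 were below 0, with a median of -0.21. An unadjusted edgeR p under 0.05 was found for 27 of the lower ones, where 7.00% of all genes tested were lower.

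**Figure D5:**
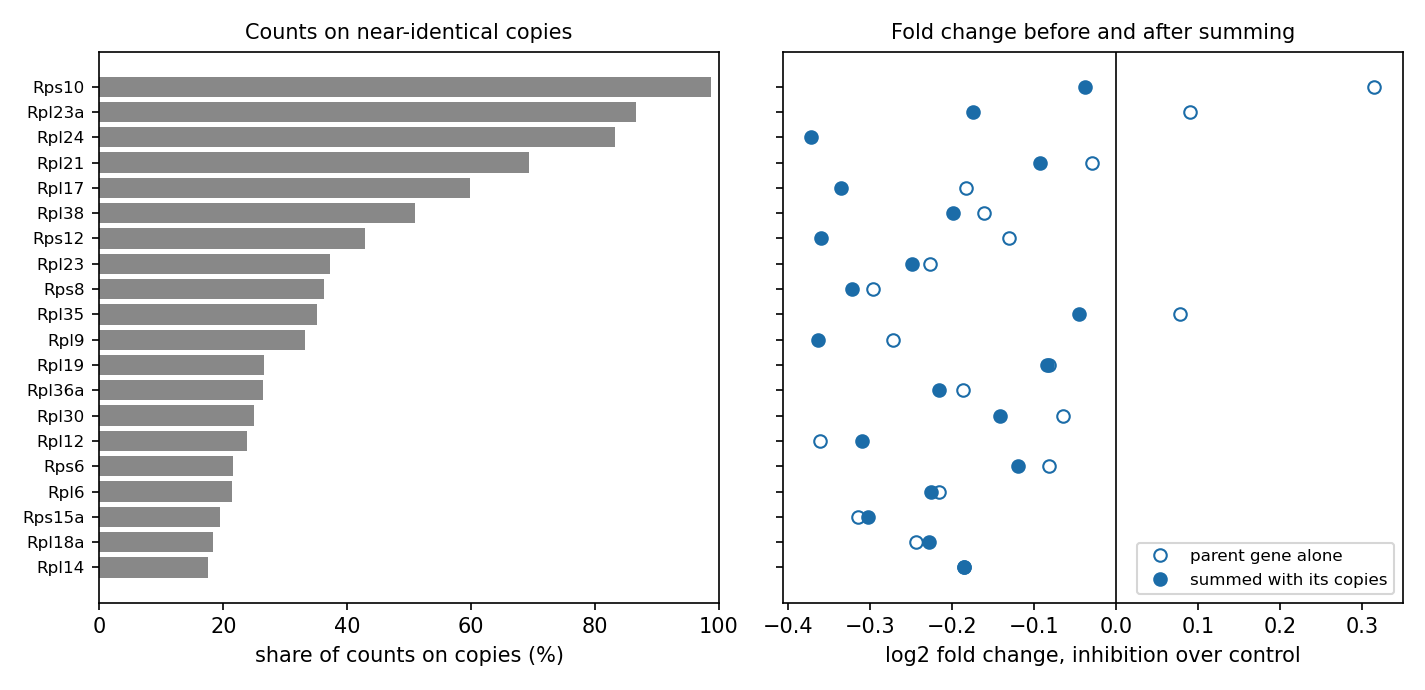
Share of counts that lay on near-identical copies (left, percent) and log2 fold change of the parent gene alone (open circles) and summed with its copies (filled circles, right), for the 20 members with the largest shares. The open circles of Rps10, Rpl23a and Rpl35 are above 0 and their filled circles below; Rpl24 was tested only when summed.

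Annotated genes on the same strand also shared exonic bases with some of these members. Gm45713 covers 29.4% of the exonic bases of Rpl13a, RPS10-NUDT3 20.6% of those of Rps10 and Gm28037 47.0% of those of Rpl24, and all 3 overlapping genes were at 0 counts in every library. How reads in shared bases were counted is not known. These 0 counts therefore do not show that the counts of Rpl13a, Rps10 and Rpl24 were complete. Opposite-strand genes covered 66.2% of the exonic bases of Rpl35 (Wdr38) and 59.7% of those of Rpl23a (Tlcd1). Wdr38 had 1 to 5 counts per library beside 1077 to 1844 on Rpl35. Tlcd1 had 108 to 205 beside 291 to 563 on Rpl23a. The strand setting of the counting was not given in the sources used here, so reads of these pairs could not be separated.

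Of the ribosomal genes that the name pattern leaves out, 4 are described here. Fau, which encodes the small subunit protein eS30 fused to a ubiquitin-like domain, measured 267, 263 and 257 CPM in the controls and 179, 227 and 201 CPM in the inhibition grafts (log2 fold change -0.37, standard error 0.09, edgeR adjusted p = 0.166). Rack1, a scaffold protein on the small subunit, measured 1545, 1561 and 1546 against 1253, 1325 and 1329 CPM (-0.25). In both genes the groups did not overlap. Rps27rt, at 5.07 to 8.52 CPM, stood at -0.56. It is also 1 of the copies above, with 100% identity to Rps27, so it is not separate from that gene. Rpl36al, at 1.02 to 1.81 CPM, stood at -0.14 with a standard error of 0.34. All 4 were below 0, with a median of -0.31. At an unadjusted edgeR p under 0.05, 3 were lower, where 7.00% of all genes tested were. By edgeR 0 passed adjustment, and DESeq2 called 2 lower (background 1.30%).

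Genes that share the TOP motif with ribosomal proteins were described next. For these and the later lists, 7.00% of all genes tested were lower and 8.36% higher at an unadjusted edgeR p under 0.05. DESeq2 called 1.30% of all genes lower and 2.37% higher, and 11.0% were lower without overlap. Of 16 TOP translation factors 12 were below 0, with a median of -0.13, 5 lower at an unadjusted edgeR p under 0.05, 0 after adjustment and 2 lower by DESeq2. Without overlap, 9 of the 16 were lower and 0 higher. Eef1b2, which reloads the elongation factor eEF1A with GTP, measured 628, 617 and 627 CPM in the controls and 481, 512 and 526 CPM in the inhibition grafts (-0.30), and Eef2, the translocase, 4233, 4185 and 4559 against 3641, 3767 and 3737 CPM (-0.22), both without overlap. Of 9 tested TOP host genes of small nucleolar RNAs 8 were below 0, with a median of -0.25. Snhg6 stood at -0.60, with 37.4, 26.7 and 25.8 against 16.9, 21.01 and 21.3 CPM and no overlap, and was lower at an unadjusted edgeR p under 0.05; 0 of the 9 passed adjustment and DESeq2 called 1 lower.

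Other parts of ribosome production showed smaller values. Of 56 ribosome biogenesis genes 39 were below 0, with a median of -0.06, 4 lower at an unadjusted edgeR p under 0.05, a share near that of all genes, 0 after adjustment and 1 lower by DESeq2. Imp3, part of the U3 small nucleolar particle, stood at -0.50 and Eif6, which keeps the new large subunit from joining, at -0.22. The 14 RNA polymerase I genes had a median of -0.02, with 1 lower at an unadjusted edgeR p (Polr1c, -0.26) and 0 called by edgeR after adjustment or by DESeq2. The 77 tested mitochondrial ribosomal proteins, which serve the separate ribosome of that organelle, were 38 below and 39 above 0, with a median of 0.0011; 9 were lower and 5 higher at an unadjusted edgeR p, and 0 were called by edgeR after adjustment or by DESeq2. The cytosolic and mitochondrial ribosomal protein genes thus had different medians, and no test of that difference was made.

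Regulators of translation were mixed. Of 26 genes of the mTORC1 and LARP1 pathway 16 were below 0, with a median of -0.03, 4 lower at an unadjusted edgeR p under 0.05, 0 after adjustment and 1 lower by DESeq2. Ddit4, a stress-induced inhibitor of mTORC1, measured 139, 112 and 122 CPM in the controls and 55.0, 89.5 and 89.1 CPM in the inhibition grafts (-0.67, edgeR adjusted p = 0.222). Eif4ebp1, the translation repressor that mTORC1 releases, stood at -0.41 and Rraga, a GTPase that brings amino acid signals to mTORC1, at -0.25, all 3 without overlap. These 3 were named for having the smallest edgeR p of the 26. In the whole list 5 genes were lower and 1 was higher without overlap, where 11.0% and 10.2% of all genes tested were. Of 26 other initiation factors 16 were below 0, with a median of -0.05, 6 lower at an unadjusted edgeR p, 0 after adjustment and 1 lower by DESeq2; Eif3c stood at -0.31. Of 9 tested genes of the MYC network 3 were below 0, with a median of 0.07, 1 lower at an unadjusted edgeR p (Mxd4, -0.33) and 0 called by edgeR after adjustment or by DESeq2. Myc measured 81.1, 96.1 and 81.3 against 107, 86.5 and 132 CPM (0.33, standard error 0.15, edgeR adjusted p = 0.345), with overlap.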

How the data were processed

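RNA of 6 whole grafts was sequenced. The deposited table held raw counts per Ensembl gene, whole numbers whose totals differ between libraries; the authors' alignment with HISAT2 2.0 to mm10 is named per the submitters' processing notes. How reads were counted, with which annotation and strand, is not given in the sources used here. Columns were matched to samples by name (0 columns unused); they speak of denervation and the titles of inhibition, which is used here. Of 55487 IDs, 55227 were matched to a GENCODE M21 symbol, and the rest held 0.00197% of counts.

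The main test was the quasi-likelihood test of edgeR 4.0.16 (R 4.3.3) with TMM factors, filterByExpr (count minimum 10, total minimum 15), robust dispersion and Benjamini-Hochberg adjustment over 15666 genes; fold changes are inhibition over control. The edgeR standard errors were derived from the test, as the size of the log2 fold change over the square root of its F statistic. Floors of 3 counts cover counting error only. Alternatives used limma 3.58.1, DESeq2 1.42.0, other scalings and filters, a replicate block, libraries left out, a muscle covariate and copies found with blastn 2.17.0 summed with their parents. On 15436 genes simulated for this comparison the fit recovered 64% of 100 genes at a fold of 2 and 90% of 100 at a fold of 4, with 13 false calls; smaller folds were not simulated.

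Members, role groups, pathway lists and marker lists were chosen with earlier results of these data known, so no p-value was computed over a list. Genes named are the 6 highest and 6 lowest fold changes, the 5 highest levels per length, paralogs and role groups, with the 3 smallest p of each pathway list available for naming; Rpl12, Rps12, Rpl21, Rpl24 and Rpl38 were named after their values were seen. An item of 1 list is not reported here.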

Additional observations from a re-analysis of the deposited data

How the results depend on the processing

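With 3 grafts a group, the smallest edgeR adjusted p of a member was 0.143. The count of genes called was 6; it was 1187 without the filter on low counts (26 ribosomal protein genes), 541 with DESeq2 (23), 33 at an adjusted p under 0.1, and 0 with limma-voom or with the muscle covariate (52 and 14 members lower at an unadjusted p under 0.05). Leaving out 1 library gave 0 to 217 genes and 0 ribosomal protein genes, with 33 to 56 members lower at an unadjusted p under 0.05. Whether the titles' replicate numbers pair the grafts could not be decided from correlations over 3 grafts a group. The correlations between same-numbered grafts were -0.18, 0.33 and 0.087. Control 1 was closest to inhibition 3, while each of the other controls was closest to the inhibition graft of its own number. With the number as a replicate block 14 genes and 0 members were called. The median of the members lay between -0.27 and -0.19 under the alternatives run, and the large less small subunit difference, 0.05, was 0.00803 with the muscle covariate and 0.03 to 0.06 with 1 library left out. Of 731 values of the 43 members that the naming rule gives, under 17 alternatives, 693 kept direction and side of the threshold, 26 newly passed (13 with DESeq2 and 13 without the filter) and 12 changed sign. The sign changed for Rpl23a (-0.30 with the muscle covariate, -0.17 with all copies, -0.10 to 0.23 with 1 library left out), Rpl35 (-0.045 with all copies), Rpl3l (-0.10 with the muscle covariate), Rps10 (-0.036 with -ps copies and -0.038 with all copies), Rps27l (0.029 with the muscle covariate) and Rps26 (0.0048 with upper-quartile factors, -0.046 to 0.037 with 1 library left out). Of the members named outside the rule, Rpl21 was 0.11 with the muscle covariate, and Rpl24, where it was tested, ranged from -0.37 to 0.42. The cause of these changes was not tested.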
